A study of Mus musculus with 6 samples.

Results

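Long intergenic noncoding RNA (lincRNA) genes of the mouse kidney were compared between day 0 and day 21 of hyperuricemia-related kidney injury. The lincRNAs described were chosen by their measured abundance: a gene had to carry the GENCODE M21 gene type lincRNA and reach a mean of at least 50 raw counts over the 6 mice sequenced. This rule selected 159 of the 5854 lincRNA genes in the count table, which lists 55450 genes in all. No count was found in any mouse for 3882 of the lincRNA genes. The rule used the level over both groups together and not the difference between them, so levels are given as a description and the difference between groups was tested.

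All mice were wild-type C57BL/6J males bought at an age of 7 weeks and housed for 1 week before the experiment. The 3 mice of the day-0 group are labelled as controls with 20% PEG, and the design equates day 0 with control. The 3 mice of the day-21 group received adenine at 0.16 g/kg together with potassium oxonate at 2.4 g/kg by gavage each day, a mixture that raises uric acid and injures the renal tubules. The agents, the 21 days that passed and the PEG named for the controls alone cannot be told apart in this design. RNA of kidney tissue was sequenced, so fewer cells of a type and less RNA per cell cannot be told apart either. Nothing links a mouse of day 0 with a mouse of day 21, and p-values measure the spread between the 3 mice of each group.

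The libraries held between 10963849 and 14333311 counts, and 3 counts, taken as the detection floor, lay between 0.179 and 0.309 CPM, a limit that covers counting error. CPM are counts scaled to the TMM-adjusted library size. Markers checked the tissue. All 6 proximal tubule markers were present and lower on day 21 (summed level 18227 to 29125 CPM on day 0 and 2906 to 4412 CPM on day 21). All 6 macrophage markers were called higher (120.4 to 149.8 CPM against 572 to 690.1 CPM), as were all 5 fibroblast and myofibroblast markers (187 to 244 CPM against 834 to 1583 CPM) and all 4 injured tubule markers (23.5 to 60.9 CPM against 1890.2 to 2298 CPM). All 4 T cell markers were higher, and all 3 distal convoluted tubule and all 4 collecting duct markers lower. Called lower were also 3 of 4 podocyte, 2 of 4 endothelium and both neutrophil markers tested. Of 3 thick ascending limb markers, 1 was called higher, 1 lower and 1 not called, and 0 of 4 urothelium markers were called. With library size alone, 3 of the 4 collecting duct and 1 of the 4 podocyte markers were called lower. DESeq2 called 4 of the 5 fibroblast and 3 of the 4 injured tubule markers, and 3 of the 5 fibroblast markers did not overlap between days. The part of these shifts in the lincRNA results was not tested.

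LincRNAs are transcripts that carry no long open reading frame and are, by name, placed between protein-coding genes. Many are spliced, capped and polyadenylated like mRNAs but stay in the nucleus and are made at lower levels. A few have known roles, such as Malat1 in nuclear speckles and Neat1, the scaffold of paraspeckles. Others start from the same promoter region as a protein-coding gene and run away from it, host small nucleolar RNAs in their introns, or lie antisense to a neighbouring gene, and for most no function is known.

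The start regions of 6 lincRNAs that shared no exon base with another gene and were called are shown first, because no exon of another gene covers the exon bases of these lincRNAs. The printed regions can still hold part of another gene, as that of Lhx1os holds the start of Lhx1. The choice was made with their values known, and not every large fold change is included. The sequences are RefSeq promoters on GRCm38.p6, from 250 bases before to 50 bases from the annotated start on, and 54 of the 159 lincRNAs matched such an entry by symbol. Capitals mark matches on either strand to motifs searched in every promoter. These were AP-1 (TGANTCA), HNF4 (CAAAGTCCA), the core of an HNF1 site (GTTAAT, a part of the full site), an NF-kB consensus, a TATA box (TATAAA) and a CCAAT box (CCAAT). The promoters of D630029K05Rik (chr10:116964490-116964789, plus strand), BC049987 (chr9:44672211-44672510, minus strand), 0610006L08Rik (chr7:74853761-74854060, minus strand) and Lhx1os (chr11:84525410-84525709, plus strand) belong to lincRNAs that were lower on day 21. Those of Eprn (chr13:73347335-73347634, minus strand) and AW112010 (chr19:11050517-11050816, minus strand) belong to lincRNAs that were higher.
D630029K05Rik: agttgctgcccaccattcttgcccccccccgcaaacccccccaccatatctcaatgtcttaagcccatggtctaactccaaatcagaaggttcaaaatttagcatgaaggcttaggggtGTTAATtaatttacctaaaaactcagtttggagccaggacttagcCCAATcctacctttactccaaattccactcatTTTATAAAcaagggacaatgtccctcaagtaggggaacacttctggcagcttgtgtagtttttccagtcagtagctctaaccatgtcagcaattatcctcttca
BC049987: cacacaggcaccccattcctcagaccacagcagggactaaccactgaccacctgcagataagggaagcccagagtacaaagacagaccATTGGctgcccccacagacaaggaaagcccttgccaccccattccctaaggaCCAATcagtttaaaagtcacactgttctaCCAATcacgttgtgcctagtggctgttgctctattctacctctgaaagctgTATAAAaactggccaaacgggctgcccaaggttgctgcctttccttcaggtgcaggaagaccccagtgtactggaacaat
0610006L08Rik: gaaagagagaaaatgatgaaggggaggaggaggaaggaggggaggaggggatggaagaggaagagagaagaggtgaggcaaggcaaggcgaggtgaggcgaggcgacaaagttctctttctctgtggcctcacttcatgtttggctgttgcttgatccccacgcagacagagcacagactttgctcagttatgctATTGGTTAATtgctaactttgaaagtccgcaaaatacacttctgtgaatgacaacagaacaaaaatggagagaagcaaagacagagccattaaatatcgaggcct
Lhx1os: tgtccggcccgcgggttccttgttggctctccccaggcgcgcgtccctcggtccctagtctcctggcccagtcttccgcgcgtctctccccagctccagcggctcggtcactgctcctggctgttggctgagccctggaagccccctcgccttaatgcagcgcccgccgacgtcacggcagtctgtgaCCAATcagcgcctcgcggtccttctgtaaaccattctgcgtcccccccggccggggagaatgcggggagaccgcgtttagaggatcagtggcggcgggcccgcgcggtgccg
Eprn: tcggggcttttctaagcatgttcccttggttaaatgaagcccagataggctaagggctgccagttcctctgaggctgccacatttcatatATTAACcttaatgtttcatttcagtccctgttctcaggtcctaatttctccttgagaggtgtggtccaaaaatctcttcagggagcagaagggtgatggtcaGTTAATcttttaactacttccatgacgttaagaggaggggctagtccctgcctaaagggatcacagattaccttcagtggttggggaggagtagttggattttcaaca
AW112010: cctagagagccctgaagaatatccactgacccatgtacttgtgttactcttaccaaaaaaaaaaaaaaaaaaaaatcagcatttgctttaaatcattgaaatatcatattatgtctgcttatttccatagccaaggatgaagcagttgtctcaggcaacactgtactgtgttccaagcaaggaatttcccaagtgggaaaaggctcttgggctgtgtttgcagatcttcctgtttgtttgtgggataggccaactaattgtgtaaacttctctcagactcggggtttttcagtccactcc

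D630029K05Rik held an HNF1 core at position -131, a CCAAT box at -86 and overlapping TATA matches at -54 and -52, counted from the annotated start. BC049987 held a TATA box at -30 and 3 CCAAT matches. In 0610006L08Rik a CCAAT match on the opposite strand overlapped an HNF1 core at -51. Lhx1os held 1 CCAAT box, and Eprn held 2 HNF1 cores, at -160 and -58. AW112010 held none of these letters, and its RefSeq start lies 5242 bases inside the GENCODE gene, whereas the starts of the other 5 lie within 33 bases of it. Over the 69 RefSeq promoters of lincRNAs described here, HNF1 cores were found in 11 (15.9%), against 7.1% of all 32851 promoters of this length. AP-1 was found in 6 (8.7%, against 7.81% of all), CCAAT in 25 (36.2%, against 37.4%), TATA in 7 (10.1%, against 13.6%), NF-kB in 2 (2.9%, against 0.411%) and HNF4 in 0 (against 0.475%). The HNF1 core was in 7 of the 24 promoters of lincRNAs lower on day 21 and in 2 of the 14 promoters of those higher. The same counts were 1 and 2 for AP-1, 0 and 2 for NF-kB and 0 and 0 for HNF4. They were 3 and 2 for TATA and 11 and 6 for CCAAT. These are matches of letters, not binding sites, and several promoters can belong to 1 gene.

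The lincRNAs were short, and their levels describe genes chosen by a count minimum. Their exons covered a median of 2197 bases (281 to 20771), against 4578 bases for the 11889 protein-coding genes that also had a mean of at least 50 counts. The longest transcript had a median of 2 exons, 17 had a single exon, and protein-coding genes had a median of 8. The level per kilobase of exon had a median of 6.06 CPM per kb and ran from 0.607 to 1611, beside a median of 6.82 CPM per kb for protein-coding genes. Both sets were cut at 50 counts, and shorter exons make that minimum higher per kilobase. These medians therefore do not compare lincRNAs with protein-coding genes as a whole. The biological coefficient of variation between mice had a median of 17.1%, against 13.4% for protein-coding genes. Together the lincRNAs took between 0.629% and 0.928% of all counts of a library. Without Gm42418, described below, the share was 0.466% to 0.514% on day 0 and 0.479% to 0.491% on day 21, so the ranges overlapped.

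Between day 0 and day 21, 30 lincRNAs were called higher and 40 lower, and 89 were not called (edgeR's quasi-likelihood test, Benjamini-Hochberg adjusted p under 0.05 over all 16592 genes tested, and a fold over 1.5). All 159 had passed the filter on low counts. Among all genes tested, 35.1% were called, 19.6% higher and 15.5% lower. The median log2 fold change was -0.029 for the lincRNAs and 0.032 for all genes. The values of the 2 days did not overlap in 88 of the 159, and in 57.1% of all genes tested. Fold changes past 2 were reached by 18 of the lincRNAs called higher and 27 of those called lower, and past 4 by 8 in either direction. Those called higher had a median log2 fold change of 1.16 and those called lower of -1.17. The adjusted p was under 0.05 at any fold for 75 lincRNAs.

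The balance of rises and falls depended on how libraries were scaled. With library size alone in place of TMM, the median of all genes moved up by 0.39 on the log2 scale, and 48 lincRNAs were called higher and 26 lower, with a median of 0.36 for the lincRNAs beside 0.42 for all genes. With RLE or upper-quartile scaling, DESeq2 or limma-voom, between 27 and 31 were called higher and between 35 and 40 lower. The mean over both groups let through 10 lincRNAs that reached 50 counts on day 0 alone, of which 9 were called lower and 0 higher, and 26 that reached it on day 21 alone, of which 8 were called higher and 0 lower. Such lincRNAs were let through by the group in which they were high, so their calls support no direction. Among the lincRNAs described below, BC049987, Gm42397, 0610006L08Rik, Gm44386 and D630024D03Rik passed through day 0 alone. Gm44148, AW112010, Snhg6, Snhg20, Epb41l4aos, Gm20186, Gm26517 and AI838599 passed through day 21 alone. Their values are given as descriptions. Among the 123 that reached the minimum in both groups, 22 were called higher and 31 lower. Just inside the minimum lay Gm26517 with a mean of 50.2 counts and AI838599 with 51.0, and just outside it Gm36161 with 49.7 and Gm15348 with 49.0.

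**Figure D1:**
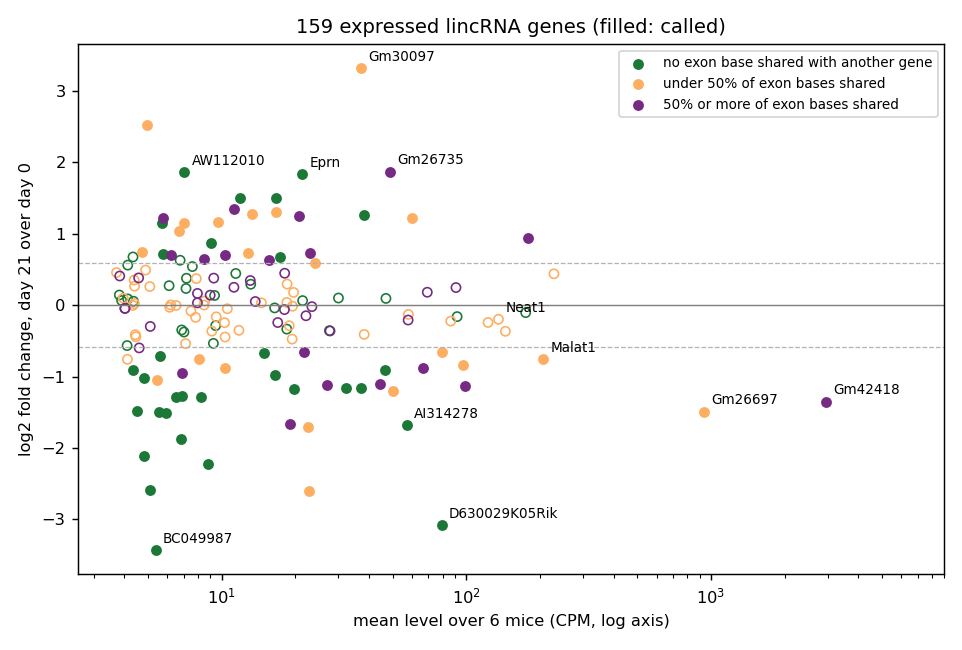
Each point is a lincRNA, with its mean level over 6 mice in CPM on a log axis against its log2 fold change of day 21 over day 0. Filled points were called, dashed lines mark a fold of 1.5, and colours show the share of exon bases that lie in exons of another gene. The lowest points are BC049987 at -3.43 and D630029K05Rik at -3.08, and the highest is Gm30097 at 3.32.

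Despite their name, 101 of the 159 lincRNAs shared exon bases with another annotated gene, and for 97 of these the sharing was with the opposite strand alone. The share was under 50% of exon bases in 61 lincRNAs and 50% or more in 40, and 12 lay wholly inside exons of other genes. The strand setting of the counting is not given in the sources used here, so reads of such a lincRNA and of the gene opposite cannot be told apart. The results are therefore given first for the 58 lincRNAs that shared no exon base. Of these, 9 were called higher, 22 lower and 27 not called, with a median log2 fold change of -0.22, beside 19.6% higher and 15.5% lower among all genes tested. Of the 13142 genes tested with a mean of at least 50 counts, 2424 were called higher and 2249 lower (median -0.004). Antisense genes at that minimum also had more falls than rises, with 67 of 573 called higher and 154 lower (median -0.15). Of the 58 lincRNAs that shared no exon base, 40 reached the minimum in both groups. These 40 split into 6 higher, 13 lower and 21 not called. The partly shared lincRNAs split into 11 higher and 10 lower (median -0.03), and the mostly shared into 10 higher and 8 lower (median 0.10). Among the 40 lincRNAs more than 5 kb from every protein-coding gene, 8 were called higher and 18 lower.

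D630029K05Rik, a lincRNA without a known role, fell further than any other lincRNA except BC049987. Its 3 exons lie within chr10:116964707-116969105 on the plus strand. It measured 135, 156 and 135 CPM in the day-0 mice and 17.4, 16.9 and 16.2 CPM in the day-21 mice. Every day-0 mouse thus lay far above every day-21 mouse, and the spread within a group was small. The log2 fold change was -3.08 (SE 0.12, adjusted p = 2.46e-07 by edgeR). The protein-coding gene that overlaps it on the opposite strand, Gm10271, had at most 0.103 CPM in a mouse.

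BC049987 had the lowest fold change of all lincRNAs described. This single-exon gene lies at chr9:44670453-44672238 and starts 995 bases from Treh, which runs the other way and encodes trehalase, a brush border enzyme of the proximal tubule. BC049987 measured 5.82, 14.1 and 9.69 CPM on day 0 and 0.919, 0.776 and 1.04 CPM on day 21 (log2 fold change -3.43, SE 0.37, edgeR adjusted p = 4.73e-05). The groups did not overlap, although the day-0 mice differed among themselves. Treh itself was lower, with 74.2, 124 and 96.3 CPM on day 0 and 41.1, 26.4 and 31.2 CPM on day 21, a log2 fold change of -1.58 (SE 0.21). BC049987 reached the minimum on day 0 alone.

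Other lincRNAs that shared no exon base and fell were AI314278 and, having reached the minimum on day 0 alone, Gm42397, 0610006L08Rik, Gm44386 and D630024D03Rik. AI314278 was the most abundant of them, with 84.4, 86.5 and 90.9 CPM on day 0 and 24.5, 29.3 and 27.6 CPM on day 21 (log2 fold change -1.68, SE 0.11, edgeR adjusted p = 2.85e-06). Its nearest protein-coding gene Fzd4, a Wnt receptor 13172 bases away, had a log2 fold change of -0.17 (adjusted p = 0.196). 0610006L08Rik measured 10.9, 16.9 and 15.7 CPM against 3.11, 3.40 and 2.82 CPM, with no overlap between days (log2 fold change -2.22, SE 0.23). Gm42397 spans 3 exons over a long locus on chromosome 7 and went from 7.22, 10.3 and 8.66 CPM to 1.63, 0.954 and 1.78 CPM. D630024D03Rik, which starts 47687 bases from Cpeb4, a regulator of mRNA polyadenylation, fell by 1.87 on the log2 scale (SE 0.25), and Cpeb4 by 0.83 (SE 0.15). Gm44386 fell by 2.12 (SE 0.32), whereas the nearest gene Pcbp1, an RNA-binding protein gene, had a log2 fold change of -0.26 (adjusted p = 0.0698). The summed proximal tubule markers given above moved in the same direction as these lincRNAs, and their part in the falls was not tested.

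The highest fold changes among lincRNAs with no shared exon base were those of AW112010, which reached the minimum on day 21 alone, and Eprn, which reached it on both days. AW112010 is known from macrophages, where it is induced in inflammation and a protein is translated from it. It measured 2.31, 4.70 and 1.96 CPM on day 0 and 11.2, 11.4 and 10.7 CPM on day 21, so that all day-21 mice lay above all day-0 mice (log2 fold change 1.86, SE 0.30, edgeR adjusted p = 0.000617). The summed macrophage markers rose over the same days, and their part in this value was not tested. Eprn, also called Ephemeron and described in embryonic stem cells, went from 7.72, 10.1 and 10.2 CPM to 26.7, 34.7 and 38.7 CPM (log2 fold change 1.83, SE 0.18, adjusted p = 2.71e-05). Its nearest protein-coding gene Mrpl36, of the mitochondrial ribosome, had a log2 fold change of 0.038.

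AU020206, a single-exon lincRNA, rose from 4.41, 7.91 and 6.29 CPM to 15.3, 21.5 and 16.2 CPM (log2 fold change 1.5, SE 0.23), while its neighbour Akap13 had a log2 fold change of -0.18 (adjusted p = 0.197). Gm42047 rose by 1.51 on the log2 scale (SE 0.32), from 4.51, 7.83 and 13.7 CPM to 30.1, 20.4 and 23.4 CPM. Of the 50-base words of its longest transcript, 72.9% also occur in Gm47939, so its reads could have been split between near-identical copies. The other 5 lincRNAs called higher in this class had log2 fold changes between 0.67 and 1.26.

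**Figure D2:**
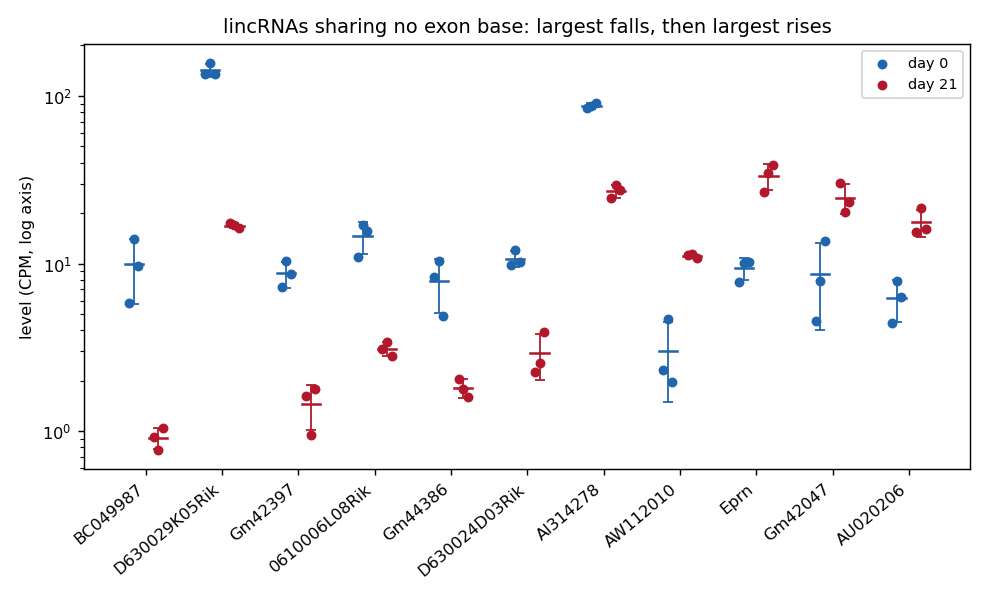
Levels in CPM on a log axis for the 11 lincRNAs that share no exon base with another gene and are among the 10 largest falls or the 10 largest rises. Points are mice, blue for day 0 and red for day 21, and horizontal lines with bars give the mean and SD of 3 mice. The falls and rises were ranked among calls whose days did not overlap, so the lack of overlap in all 11 follows from that choice. Several of the 11 reached the count minimum on day 0 alone or day 21 alone, as given in the text.

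Among lincRNAs of known role, Malat1 and Snhg6 were called and 8 were not. Malat1, an abundant nuclear RNA of speckles, measured 296, 187 and 297 CPM on day 0 and 203, 135 and 123 CPM on day 21. A day-21 mouse lay above the lowest day-0 mouse, so the groups overlapped. Of its bases, 6.49% are shared with Gm37376, whose log2 fold change was -0.67. The log2 fold change of Malat1 was -0.76 (SE 0.22, edgeR adjusted p = 0.0171). The call was lost without the second day-21 mouse (-0.67, adjusted p = 0.0648), without the third (-0.62, adjusted p = 0.0737) and with library size alone (-0.38, adjusted p = 0.162). Neat1, 22035 bases away on the same strand, measured 129, 148 and 157 CPM against 136, 137 and 106 CPM. The log2 fold change of Neat1 was -0.20 (SE 0.13, adjusted p = 0.249) and turned to 0.19 with library size alone.

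2900097C17Rik, the mouse Norad, which binds Pumilio proteins, lay between 158 and 188 CPM in all 6 mice and had a log2 fold change of -0.10 (SE 0.10, adjusted p = 0.451), or 0.28 with library size alone. Of its 50-base words, 39.5% also occur in Gm7292. 1700020I14Rik, the mouse Cyrano, which directs the decay of the microRNA miR-7, lay between 79.3 and 114 CPM, with a log2 fold change of -0.16 (SE 0.14), or 0.23 with library size alone. Pantr1, a lincRNA beside the transcription factor gene Pou3f3, had a log2 fold change of -0.35 (adjusted p = 0.277), or 0.048 with library size alone. In all 3 of these lincRNAs the days overlapped.

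Several lincRNAs carry small RNAs. Snhg6, whose intron holds the C/D box snoRNA Snord87 (chr1:9942463-9942549, minus strand), was called higher on day 21 and reached the minimum of 50 counts on that day alone. It measured 3.81, 4.12 and 5.26 CPM on day 0 and 7.78, 9.31 and 10.04 CPM on day 21, without overlap (log2 fold change 1.04, SE 0.22, edgeR adjusted p = 0.00336). Snhg18, whose intron holds Snord123 (chr15:32241853-32241923, minus strand), lay between 27.9 and 33.6 CPM in all mice (log2 fold change 0.10, SE 0.12, adjusted p = 0.524). Snhg12 had a log2 fold change of 0.38 (SE 0.20, adjusted p = 0.156), or 0.77 and called with library size alone (adjusted p = 0.0111), and its annotated exons hold Snora44, Snora61, Snora16a and Snord99. Snhg20, whose single exon holds the microRNA gene Mir6516, lay between 2.41 and 5.70 CPM (log2 fold change 0.056, SE 0.33). Epb41l4aos, with a snoRNA in its intron, had a log2 fold change of 0.68 (adjusted p = 0.127), or 1.07 and called with library size alone (adjusted p = 0.0205). Dubr and Gm17300 hold Mir6363 and the snoRNAs Snora73a and Snora73b on the opposite strand and had log2 fold changes of 0.14 and -0.41, neither called. The small RNAs themselves were not measured. Their sequences are printed to show what the host genes carry. The microRNAs are mature sequences from RefSeq (chr11:117077370-117077391 and chr11:117077412-117077433 on GRCm38.p6, plus strand) with the seed, bases 2 to 8, in capitals, and the snoRNAs are from GENCODE with the TGATGA of box C and the CTGA of box D in capitals.
mmu-miR-6516-5p: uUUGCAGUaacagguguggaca
mmu-miR-6516-3p: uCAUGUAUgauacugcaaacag
Snord87: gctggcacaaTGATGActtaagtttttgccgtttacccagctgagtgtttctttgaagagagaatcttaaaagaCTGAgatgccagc
Snord123: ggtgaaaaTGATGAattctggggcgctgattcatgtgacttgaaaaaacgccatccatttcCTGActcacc

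**Figure D3:**
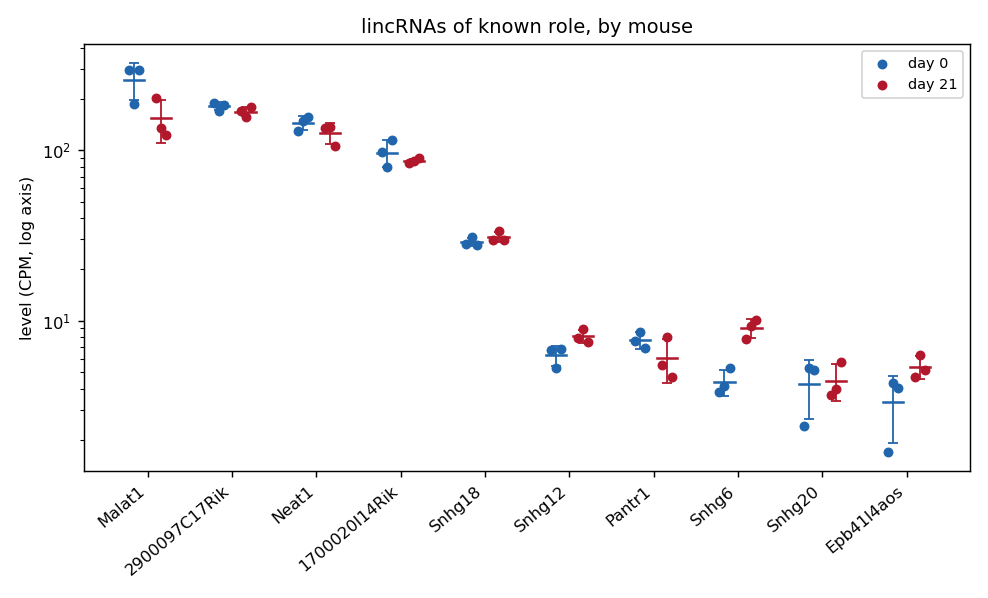
Levels in CPM on a log axis of the 10 lincRNAs with a known role, ordered by mean level. Points are mice, blue for day 0 and red for day 21, with mean and SD of 3 mice. Malat1, from 123 to 297 CPM, was called lower and its days overlap, and Snhg6, from 3.81 to 10.04 CPM, was called higher.

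Other snoRNA host genes are annotated under another gene type and were not selected. They are given from the same list of noncoding RNAs of known role. The table held 60 of its genes. Tests were possible for 38, and 7 were called higher and 2 lower, where library size alone gave 13 higher and 1 lower. Among all genes 35.1% were called. Of 15 host genes tested (those named Snhg, with Gas5, Zfas1 and Epb41l4aos), 5 were called higher, 1 lower and 9 not. Besides Snhg6, the host genes Gas5 (log2 fold change 1.07, SE 0.14), Snhg1 (1.05, SE 0.25), Snhg5 (1.64, SE 0.28) and Zfas1 (1.59, SE 0.20) were called higher and Snhg11 lower (-1.38, SE 0.26). Snhg3, Snhg8, Snhg14, Snhg15 and Snhg17 were not called. The other rises were Pvt1 and Hotairm1, both under 2.21 CPM in every mouse, and the other fall was Malat1. Proteins that act with nuclear RNAs were taken from further lists. Among 11 paraspeckle proteins, Hnrnpa1 was called higher (log2 fold change 1.22, SE 0.12) and 10 were not called, where library size alone called 7 higher. Of 10 nuclear speckle proteins 0 were called by edgeR, DESeq2 or limma-voom, and 2 had an unadjusted p under 0.05. Of 16 nuclear RNA decay factors Exosc8, Exosc9 and Mphosph6 were called higher and Tent4b lower.

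LincRNAs that start close to a protein-coding gene and run away from it form a class of their own, since both may use 1 promoter region. Of 14 lincRNAs that start within 1000 bases of such a gene, 11 had a fold change of the same sign as that gene (Pearson r = 0.91 and Spearman rho = 0.90 over the 14 pairs, a description across genes measured in the same 6 libraries). Over 20 such pairs at any distance with no shared exon base, 13 had the same sign (r = 0.75, rho = 0.62). Lhx1os starts 125 bases from Lhx1, a transcription factor of kidney development, and its printed start region includes the start of Lhx1. Lhx1os measured 9.22, 10.1 and 9.89 CPM on day 0 and 4.31, 4.00 and 3.80 CPM on day 21. Lhx1 measured 19.5, 23.7 and 25.1 CPM against 12.8, 15.2 and 12.6 CPM. Both were lower on day 21 in every mouse, with log2 fold changes of -1.27 (SE 0.20) for Lhx1os and -0.75 (SE 0.15) for Lhx1.

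The other pair in which both genes were called was BC049987 with Treh. In 4 pairs the lincRNA alone was called lower. Fam120aos fell from 28.7, 30.5 and 22.7 CPM to 13.9, 14.4 and 8.15 CPM (log2 fold change -1.17, SE 0.22), and Fam120a, an RNA-binding protein gene 270 bases away, had a log2 fold change of -0.31 (SE 0.10). Gm17586 with Mafg (168 bases), 5031425E22Rik with Kmt2e (172 bases) and AI480526 with Setd1b (527 bases) showed log2 fold changes of -0.71, -0.66 and -0.95 beside -0.46, -0.39 and -0.49 for the protein-coding gene. In some other pairs the protein-coding gene alone was called, such as Sema5a beside Snhg18 (log2 fold change 0.62) and Lsm8, a gene of the complex that binds U6 RNA, beside Gm20186 (0.64). AI480526 and Gm20186 share exon bases with other genes (66.6% and 81.4% of their bases), so the limit given above for shared bases holds for them. The largest shares were with 4932422M17Rik (log2 fold change -1.15) and Gm26809 (0.59). Opposite signs were found for Gm5113 with Zfp146 (-0.54 beside 0.39), 2010320M18Rik with Pik3r2 (-0.29 beside 0.26) and 4632404H12Rik with Ube2q1 (-0.38 beside 0.014). No gene of these pairs was called. The difference between the fold changes within a pair was not tested. The 14 pairs were chosen for their position among lincRNAs that passed the count minimum, and not every pair is named. BC049987 passed that minimum through day 0 alone and Gm20186 through day 21 alone, so both enter the counts and correlations above as descriptions.

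**Figure D4:**
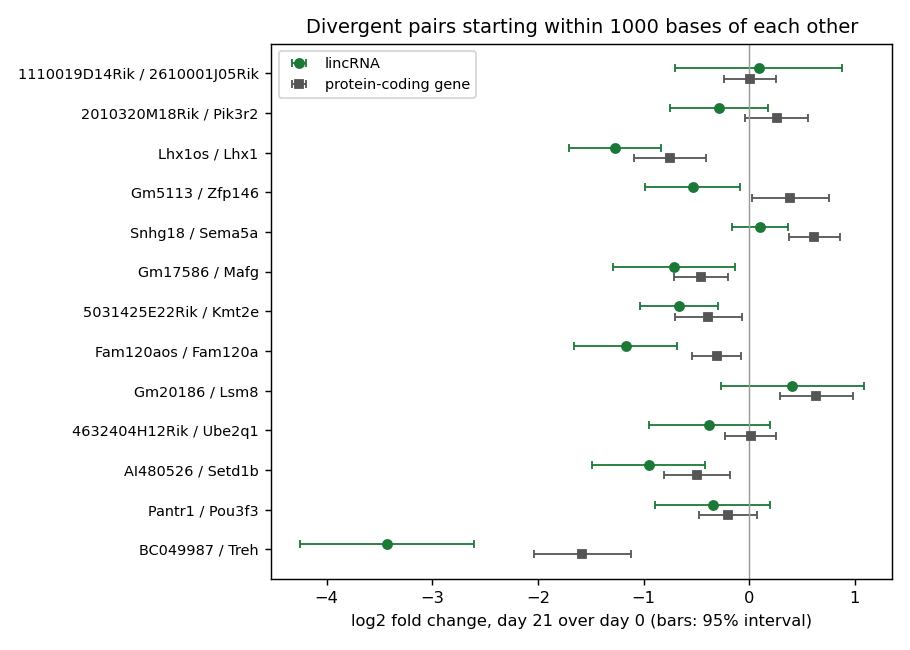
Log2 fold changes of day 21 over day 0 with 95% intervals for a selection of the divergent pairs, ordered by the distance between the starts. The values of the pairs with opposite signs are given in the text. Circles are lincRNAs and squares the protein-coding genes. BC049987 with Treh and Lhx1os with Lhx1 are the pairs in which both were called.

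For lincRNAs that shared no exon base, the nearest protein-coding gene over all arrangements could be tested in 50 pairs, and 29 had the same sign (Pearson r = 0.28, Spearman rho = 0.30). For lincRNAs that shared exon bases, the fold changes of lincRNA and overlapping gene lay close together. Over 57 partly shared pairs r was 0.94 and over 40 mostly shared pairs 0.95, and the absolute difference of the log2 fold changes had a median of 0.16 in each. All 31 pairs in which both were called had the same sign. These correlations are across genes of the same libraries, which are not independent, and the part of shared reads in them was not tested.

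**Figure D5:**
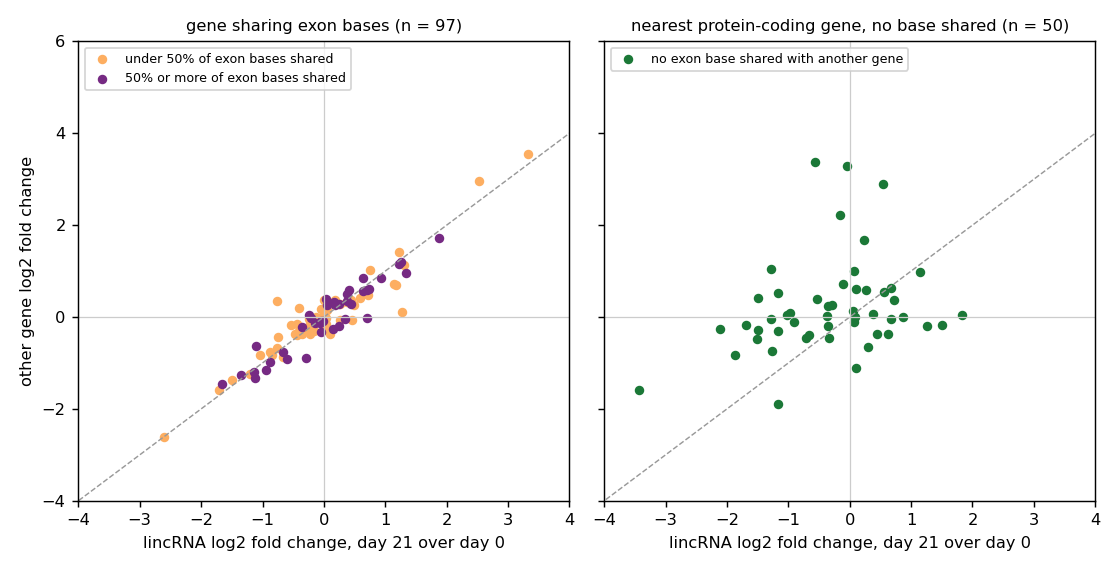
Log2 fold change of each lincRNA against that of the gene with which it shares most exon bases (left, 97 pairs) or of the nearest protein-coding gene when no base is shared (right, 50 pairs). The dashed line marks equal fold changes. Points on the left follow the line, whereas those on the right scatter.

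The lincRNAs with the most counts belonged to this overlapping class. Gm42418, a single exon at chr17:39846958-39848788, had the highest level of all, 1611 CPM per kb, and 99.5% of its bases lie in the ribosomal RNA gene CT010467.1 on the opposite strand. It measured 5155, 5024 and 2535 CPM on day 0 and 2152, 1285 and 1551 CPM on day 21, and CT010467.1 measured 2198, 2274 and 1173 CPM against 994, 635 and 716 CPM. The third day-0 mouse stood apart from the other two for both genes. Both were lower on day 21 (log2 fold changes -1.35, SE 0.27, and -1.27, SE 0.25), and a part of leftover ribosomal RNA in this result was not tested. Gm26917, 616 bases away, measured 46.3 to 68.7 CPM on day 0 and 27.5 to 38.1 CPM on day 21 (log2 fold change -0.91, SE 0.17). Without both genes, an alternative chosen after seeing the data, 30 lincRNAs were called higher and 38 lower.

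Gm26697 lies antisense to Slc27a2, a fatty acid transporter and very long-chain acyl-CoA synthetase of the proximal tubule, and 23.8% of its exon bases lie in Slc27a2 coding exons. It measured 1282, 1363 and 1498 CPM on day 0 and 588, 372 and 513 CPM on day 21 (log2 fold change -1.49, SE 0.17, edgeR adjusted p = 5.83e-05). Slc27a2 fell by 1.37 on the log2 scale (SE 0.15). The lincRNA counts were 33.2% to 36.1% of those of Slc27a2 on day 0 and 29.7% to 33.6% on day 21, so the ratio of counts overlapped between days. Gm26527, wholly inside the untranslated exon bases of the lysosomal sulfatase gene Arsb, was also lower (log2 fold change -1.14, SE 0.16, beside -1.19 for Arsb), as were Gm16755 opposite Mrpl12 (-0.84 beside -0.82) and Gm39214 opposite Itfg1 (-0.66 beside -0.88). Gm39214 was no longer called without the third day-0 mouse (-0.58), with upper-quartile scaling (-0.58) or with library size alone (-0.27, adjusted p = 0.0772), and Gm16755 was not called with library size alone (-0.45).

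The largest rise of all, Gm30097, belongs to a gene whose exons overlap those of Fgg, the fibrinogen gamma chain, by 15.0% of its bases. It measured 13.7, 4.53 and 2.06 CPM on day 0 and 106, 43.1 and 53.7 CPM on day 21 (log2 fold change 3.32, SE 0.54, edgeR adjusted p = 0.00063), and without the first day-0 mouse the log2 fold change was 4.28. Fgg measured 40.01, 14.7 and 3.50 CPM against 329, 151 and 197 CPM (log2 fold change 3.54, SE 0.62). In both genes the mice kept the same order within each day. Gm44148 opposite Usp18, an interferon-induced protease that removes ISG15, reached the minimum on day 21 alone and rose by 2.52 (SE 0.37) beside 2.96 for Usp18. Gm26735, 98.8% inside exons of the transcription factor gene Sox4, rose by 1.87 (SE 0.16) from 16.9 to 24.5 CPM to 69.1 to 89.2 CPM, beside 1.72 for Sox4. Gm26669 opposite Zfp36l1, an RNA decay factor, and Gm29233 opposite Thbs1, the matrix protein thrombospondin, rose by 0.94 and 1.25, beside 0.85 and 1.20. Gm26751 opposite Nynrin and Gm26541 opposite Mob3a rose by 1.34 and 1.30, beside 0.95 and 1.14.

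Falls in this class were Gm15889, which shares 21.9% of its bases with the antisense gene Gm15890, Gm26840 opposite the matrix protein gene Vwa1 and Gm47162, wholly inside the pseudogene Scp2-ps2. Gm15889 went from 31.2, 38.1 and 48.2 CPM to 6.50, 6.26 and 6.49 CPM (log2 fold change -2.61, SE 0.18, edgeR adjusted p = 3.3e-06). Its nearest protein-coding gene is Herpud1 of the endoplasmic reticulum stress response, 6121 bases away and also lower (log2 fold change -2.12). Gm26840 had a log2 fold change of -1.70 (SE 0.26) beside -1.59 for Vwa1, and Gm47162 one of -1.66 (SE 0.16) beside -1.46. Abundant lincRNAs of this class that were not called were Gm17275 opposite H3f3a, a gene for histone H3.3 (log2 fold change 0.44, adjusted p = 0.00714, under the fold threshold, and 0.83 and called with library size alone), Gm26762 opposite the glycolytic enzyme gene Gpi1 (-0.37, adjusted p = 0.0322, and 0.021 with library size alone), Gm26882 opposite Morf4l1 (0.25, adjusted p = 0.0661, and 0.64 and called with library size alone) and 1810012K08Rik opposite Tmem250-ps (-0.36, adjusted p = 0.132, and 0.028 with library size alone).

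In some pairs the fold changes of lincRNA and gene lay apart. Gm7932 shares 3.56% of its bases with Gm44764 and rose by 1.27 (SE 0.18), from 6.32, 9.48 and 7.52 CPM to 17.9, 20.2 and 18.6 CPM, while Gm44764 had a log2 fold change of 0.11 (adjusted p = 0.804). Its nearest protein-coding gene is Aoc1, diamine oxidase, 6813 bases away, which rose by 5.59 (SE 0.28). The following were chosen after their values were seen. Gm10804, which lies opposite Cd82 without sharing an exon base, measured 35.1, 47.1 and 51.9 CPM on day 0 and 25.4, 18.1 and 16.5 CPM on day 21 (log2 fold change -1.16, SE 0.19), while Cd82, a tetraspanin gene, had a log2 fold change of 0.53. 2700016F22Rik, which shares 54.3% of its bases with Emc1, a subunit of a membrane protein insertase, amounted to 17.2% to 24.3% of the Emc1 counts on day 0 and 29.1% to 38.6% on day 21, so that the ratio did not overlap between days (log2 fold changes 0.70 and -0.031). Among pairs with a protein-coding gene, the ratio did not overlap in 11 of 50 partly shared and 6 of 31 mostly shared pairs. Gm39214 with Itfg1 and Gm26669 with Zfp36l1 were also among these. The share of other gene pairs whose ratio did not overlap was not computed, so these counts are a description alone.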

How the data were processed

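Kidney RNA of 6 mice was sequenced as paired-end reads, and the authors deposited raw counts per gene, not normalized, for each mouse. The submitters' processing notes name TopHat and mm10, and the counting program and its strand setting are not given in the sources used here. Gene types, exons and positions came from GENCODE M21. Counts were filtered with filterByExpr, scaled by TMM and tested with edgeR 4.0.16 (quasi-likelihood) in R 4.3.3 over 16592 genes, with Benjamini-Hochberg adjustment. A gene was called at a fold over 1.5 with an adjusted p under 0.05. Alternatives used DESeq2 1.42.0, limma 3.58.1, other scalings, filters and thresholds, a replicate block, and each mouse left out. In simulated data with 200 of 16592 genes changed 3-fold, edgeR recovered 164 of them and called 10 unchanged genes. So few changes, in random directions, could not check the choice of scaling. Levels are TMM-scaled CPM, per kilobase of exon where stated. Depth was 10963849 to 14333311 counts, and SDs are over 3 mice. No pair of mice was a duplicate (chi-square per gene at least 7.17). The lincRNAs, lists and tests were chosen with earlier results of these data known. Named lincRNAs were the 10 highest per kilobase, the 10 largest rises and 10 largest falls among calls whose groups did not overlap, those of known role, the 3 most abundant not called, those hosting small RNAs in exons, those at the minimum, and the genes beside them. Sequences came from RefSeq and GENCODE tables. Some genes among the pairs and lists are not reported here.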

Additional observations from a re-analysis of the deposited data

How the results depend on the processing

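Of 45 named lincRNAs, 29 kept their sign and their side of the thresholds in all alternatives run on them, and 14 changed under library size alone. Of the 70 calls, 53 held under RLE and upper-quartile scaling, both other filters, DESeq2, limma-voom, the replicate block, each mouse left out and removal of mitochondrial genes. The median log2 fold change was -0.029, and became -0.064 with RLE scaling, -0.063 with DESeq2, 0.060 with upper-quartile scaling, 0.36 with library size alone, -0.077 at a minimum mean of 20, -0.13 with 50 in each group, -0.22 with no shared exon base, -0.29 beyond 5 kb, and -0.075 to -0.034 with a mouse left out. Library size alone gave 48 lincRNAs higher and 26 lower and made 81.7% of all calls rises, against 55.8%. A fold over 2 with an adjusted p under 0.01 left 44 lincRNAs (17 higher) and 3172 of 5821 genes called. A minimum of 20 counted 269 lincRNAs as expressed and 61 as lower, and a minimum of 100 counted 102 and 26. With no shared exon base 31 were called (9 higher, 22 lower), and beyond 5 kb 26 (8 higher, 18 lower), both from fewer lincRNAs. Signs of lincRNAs that were not called turned for 1810012K08Rik (0.028), Pantr1 (0.048), Neat1 (0.19), 1700020I14Rik (0.23), 2900097C17Rik (0.28) and Gm26762 (0.021) with library size alone and, with a mouse left out, for Snhg20 (-0.25 to 0.24) and Dubr (-0.018 to 0.22). Replicate numbers did not pair the mice (correlations of -0.02, 0.17 and 0.09), and the fit with a replicate block called 68 lincRNAs, 29 higher and 39 lower, against 70. The cause of these changes was not tested.

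Depth limits lincRNAs near the minimum mean of 50 counts, and the 3 mice of a group leave the 89 lincRNAs that were not called with standard errors of 0.10 to 0.48, so that a missing call does not show equal levels. Reads of overlapping genes limit the values of lincRNAs that share exon bases. The shift in cell type markers and the PEG label are limits of every value.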
